A study of Homo sapiens with 6 samples.

Results

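Transcript levels of 7 activity-regulated synaptic genes, NPAS4, ARC, HOMER1, NPTX1, NPTX2, NRN1 and PLK2, were followed in human glutamatergic iNeurons with and without isoproterenol. The genes were picked by name as a set known to respond to neuronal activity. Earlier results of these data were known when they were chosen. All 7 were present among the 19823 genes of the table. The neurons were derived from the parental WTc11 induced pluripotent stem cell line, and RBM12, which encodes an RNA-binding protein, was knocked down by CRISPR interference (dCas9-KRAB) in all 6 samples. Of these samples, 3 were untreated and 3 received isoproterenol, a beta adrenergic agonist that raises cAMP. Its dose and the duration of treatment are not given for these samples. Per the study's methods, the stem cell line was a single clone in which doxycycline-induced NGN2 drives differentiation, and the culture medium of all neurons contained BDNF and NT-3. Where nothing says that replicates were separate differentiations, p-values measure only the spread between these samples, which may be technical.

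Synaptic activity and cAMP both act on transcription in neurons through CREB and related factors, and the first genes to respond are transcribed without new protein synthesis. NPAS4 and ARC are among this early group, and the other genes are not sorted here into early and late. NPAS4 is a neuron-restricted transcription factor that pairs with ARNT or ARNT2 and regulates a later set of genes at inhibitory and excitatory synapses. ARC acts at the synapse itself, where it promotes endocytosis of AMPA-type glutamate receptors. The remaining genes are called effectors below, although ARC also acts at the synapse. HOMER1 is a postsynaptic scaffold for metabotropic glutamate receptors, NPTX1 and NPTX2 are secreted pentraxins that gather AMPA receptors, NRN1 (neuritin) is a membrane-anchored protein that supports neurite and synapse growth, and PLK2 is a kinase that weakens excitatory synapses during sustained activity.

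Each sample held between 18116816 and 21488793 reads. The unit is the normalized count, the reads of a gene divided by 1 size factor for its sample. Fold changes compare isoproterenol with untreated samples on the log2(normalized count + 1) scale. RBM12 itself ranged from 244 to 279 normalized counts without and from 195 to 238 with isoproterenol. Neurons with a nontargeting guide are not analysed here, and the effect of the knockdown on the 7 genes was therefore not measured. Of the markers of glutamatergic neurons, the vesicular glutamate transporters SLC17A6 (12393 to 14710 normalized counts) and SLC17A7 (2968 to 3318) were high in all samples, whereas NEUROD1 was nearly absent (3.87 to 12.0). Markers of cholinergic and peripheral neurons were also present, such as POU4F1 (8271 to 10838) and the choline transporter SLC5A7 (6419 to 8420).

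Isoproterenol samples had more NPAS4 and ARC transcript than untreated samples, while the 5 effector genes differed little. NPAS4 averaged 3.80 ± 4.18 normalized counts without and 69.3 ± 37.1 with isoproterenol, and ARC averaged 163 ± 24.1 and 225 ± 51.1 (SD, n = 3 per group). In the unpaired limma test, 0 of the 7 genes passed an adjusted p of 0.05, at which 0.0165% of the 18130 genes tested were called, and 2 of the 7 (NPAS4 and ARC) had p under 0.05 before adjustment, as did 7.68% of all genes. Unpaired, edgeR and DESeq2 each called 1 of the 7, NPAS4, where they called 0.0552% and 0.15% of the genes for which they gave an adjusted p. With same-numbered samples treated as pairs (the replicate block), limma called 2 of the 7, both higher, where 2.82% of all genes were called higher and 4.88% in either direction. The isoproterenol values lay entirely above the untreated values in 1 of the 7 genes, NPAS4, against 6.73% of all genes. In 4 of the 7 (NPAS4, ARC, NPTX1 and NRN1) the isoproterenol sample was higher in each of the 3 pairs, which was true of 18.5% of all genes.

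**Figure D1:**
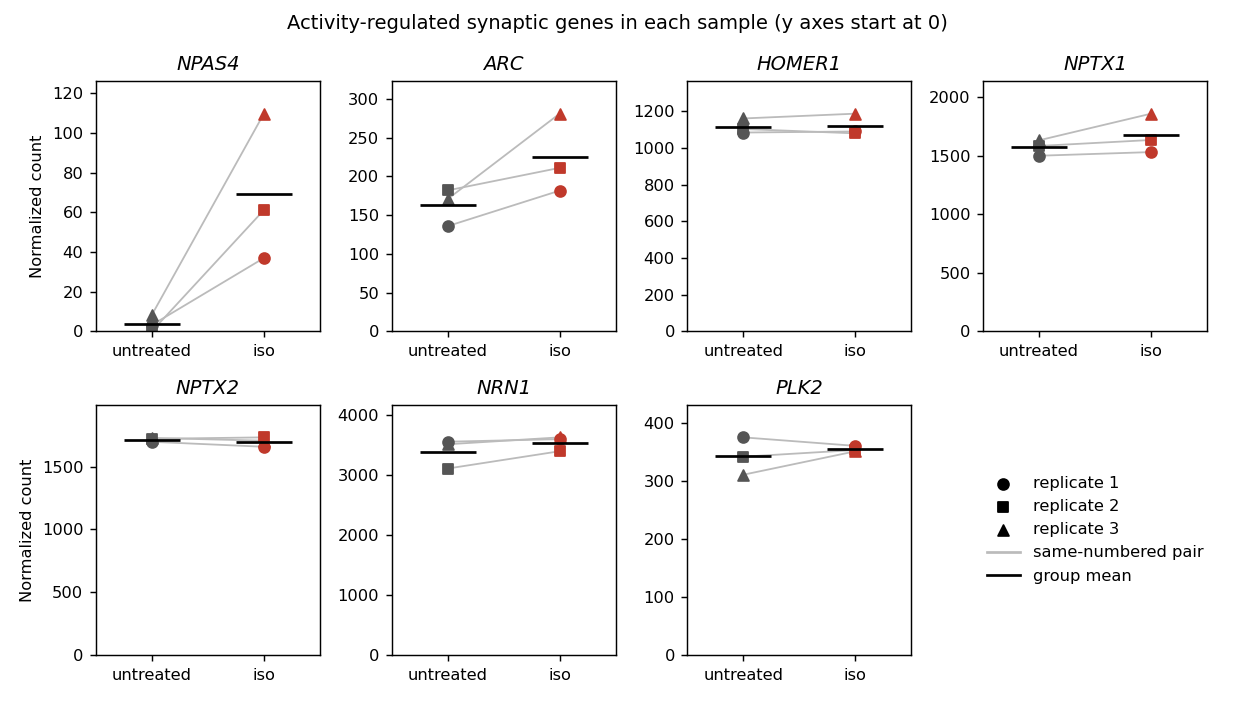
Normalized counts of the 7 genes in each sample. Circles, squares and triangles stand for replicates 1, 2 and 3, grey lines join same-numbered samples and black bars give the group mean (n = 3), with every y axis starting at 0. The groups separate completely for NPAS4, overlap slightly for ARC, and sit at nearly the same height for the other genes.

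NPAS4 (ENSG00000174576; GRCh38, chromosome 11, 66421035 to 66426707, plus strand) was close to undetected without the agonist. Untreated replicates 1 to 3 held 3, 0 and 8 NPAS4 reads, and the corresponding treated libraries held 37, 53 and 107. As normalized counts these were 3.13, 0 and 8.28 untreated and 36.9, 61.1 and 110 with isoproterenol. Every isoproterenol sample therefore exceeded every untreated sample, and the 95% exact Poisson intervals of the reads, which cover counting error only, ran up to 15.8 in untreated replicate 3 and down to 26.1 in isoproterenol replicate 1. The ratio of the group means was 18.2. In pair 2, where no untreated read was seen, the isoproterenol value was 21.1 times a floor of 3 reads in the untreated library. This floor was a chosen value below the 95% Poisson upper limit of 3.69 for 0 reads, so 21.1 is not a lower bound of the fold.

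The log2 fold change of NPAS4 was 4.24 (SE 0.83, 95% interval 2.26 to 6.23), with an adjusted p of 0.273 in the unpaired limma fit and 3.89e-14 with the replicate block. The same unpaired comparison gave an adjusted p of 0.00482 in edgeR, which models the reads. With the block the limma SE was 0.40, a value that limma moderates with the variances of other genes. The limma p with the block therefore does not measure the spread of the 3 NPAS4 pairs alone. DESeq2 with the block gave a log2 fold change of 4.57 (SE 1.08) and an adjusted p of 0.00457. The unpaired limma call depended on which samples and pseudocount were used. Without untreated replicate 2 the log2 fold change was 3.37 and the limma adjusted p 0.0033, and without untreated replicate 3 these were 4.97 and 0.0314. Without untreated replicate 1 the adjusted p was 0.569, and without isoproterenol replicate 1, 2 or 3 it was 0.506, 0.198 and 0.452. With a pseudocount of 5 in place of 1 the change was 3.07 and the adjusted p 0.0196, and with 0.5 these were 4.65 and 0.474. NPAS4 rose in all 3 pairs, by 3.20, 5.96 and 3.58 on the log2 scale in pairs 1 to 3, of which the value of pair 2 depends on the pseudocount.

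The sequence before the NPAS4 start site holds a pair of CRE half-sites, the TGACG core to which CREB binds, on opposite strands. RefSeq lists 2 NPAS4 starts, and the half-sites lie 171 and 161 bases before the one at the gene start given above and 140 and 130 bases before the other. Among 34943 distinct windows of 250 bases before an annotated start, 21.2% held at least 1 TGACG on either strand and 4.73% at least 2. The full palindrome TGACGTCA, present in 1.63% of windows, was found in none (0) of those of NPAS4, PLK2, HOMER1, NRN1 and NPTX2. PLK2, NRN1 and NPTX2 each held 1 half-site, 77, 237 and 103 bases before their starts, and HOMER1 held 0. The motif TCGTG, the core bound by NPAS4 with its partner, overlaps none of these sites. It was found once in NPTX2 and once in HOMER1 and in 14.1% of all windows. The stretches around the half-sites are shown so that the NPAS4 promoter can be read beside those of 3 effectors, with both motifs in capitals, 5′ to 3′ on the gene's strand (RefSeq, GRCh38.p14). They span chr11:66420834-66420908 for NPAS4 (plus strand), chr5:58460129-58460193 for PLK2 (minus strand), chr6:6004228-6004275 for NRN1 (minus strand) and chr7:98617152-98617216 for NPTX2 (plus strand). In PLK2, 11 of the bases lie in an exon of another annotated transcript. The NRN1 stretch precedes a RefSeq start that lies inside the GENCODE span of the gene (5997999 to 6007605). It therefore lies within NRN1 and not before the whole gene, with 0 bases in its exons. A match is a description of these letters and not a measured site.
NPAS4: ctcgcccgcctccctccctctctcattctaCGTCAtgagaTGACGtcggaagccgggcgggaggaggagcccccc
PLK2: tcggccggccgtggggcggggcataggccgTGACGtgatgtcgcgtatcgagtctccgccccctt
NRN1: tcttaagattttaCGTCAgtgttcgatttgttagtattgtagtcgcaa
NPTX2: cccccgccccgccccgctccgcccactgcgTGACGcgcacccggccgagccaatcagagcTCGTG

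ARC (ENSG00000198576; chromosome 8, 142611049 to 142614479, minus strand) was expressed in every sample. In the order of replicates 1 to 3, its normalized counts were 136, 182 and 171 without treatment, whereas the treated samples had 182, 211 and 281. The groups met at a single point, since isoproterenol replicate 1 (181.6) lay just under untreated replicate 2 (181.9). ARC was higher with isoproterenol by 0.42, 0.21 and 0.72 on the log2 scale in pairs 1 to 3. The log2 fold change was 0.45 (SE 0.15, 95% interval 0.12 to 0.77), which is an increase of 36.5%. Its limma adjusted p was 0.495 unpaired and 0.0049 with the replicate block, and edgeR with the block gave 0.00336.

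The size and call of ARC rested in part on pair 3. With the replicate block and without replicate 3 the change was 0.32 and the limma adjusted p 0.28, and DESeq2 with the block over all pairs gave 0.411. Leaving out single samples from the unpaired fit moved the change between 0.28 (without isoproterenol replicate 3) and 0.59 (without isoproterenol replicate 1). The difference between the NPAS4 and ARC changes was not tested.

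**Figure D2:**
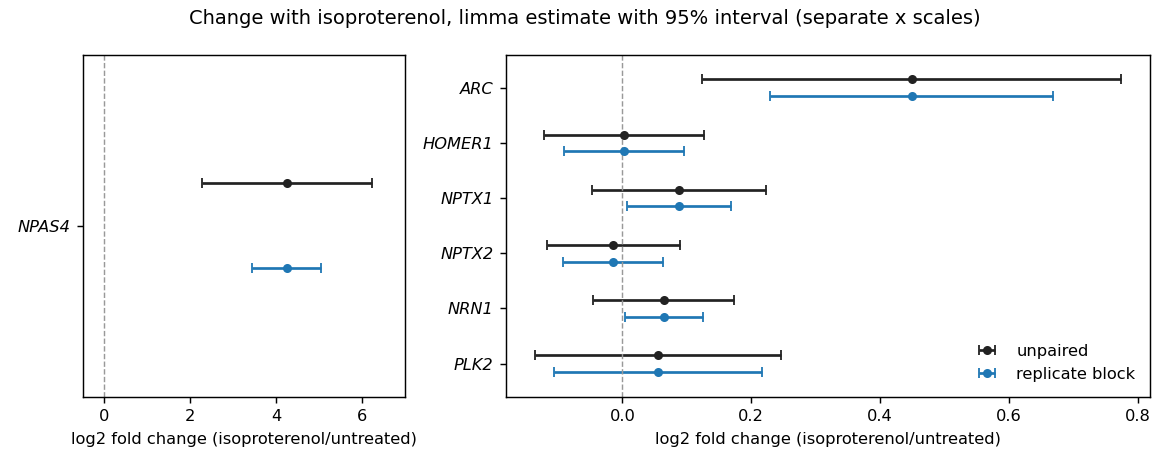
Estimated log2 fold change (isoproterenol against untreated) of each gene with its 95% limma interval, for the unpaired fit in black and with same-numbered samples as pairs in blue, n = 3 per group. NPAS4 has its own x axis. The intervals of NPAS4 and ARC lie above 0 in both fits, and those of HOMER1, NPTX2 and PLK2 include 0 in both. Those of NPTX1 and NRN1 include 0 in the unpaired fit and lie just above 0 with pairs.

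The 5 effectors showed narrow intervals around small differences. HOMER1 (ENSG00000152413; chromosome 5, 79372636 to 79514134) measured 1084, 1103 and 1161 normalized counts untreated (replicates 1 to 3) and 1090, 1079 and 1187 with isoproterenol. These values interleave, and the estimated difference was 0.196% (95% interval -8.08% to 9.22%, limma unpaired). The table counts reads per gene, so the short activity-induced form Homer1a and the long scaffold forms, which share the gene's first exons, cannot be told apart. GENCODE lists 5 HOMER1 transcripts.

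The neuronal pentraxins NPTX1 and NPTX2 form a family of paralogs. NPTX1 (ENSG00000171246; chromosome 17, 80466834 to 80477843) measured 1498, 1582 and 1630 normalized counts untreated and 1530, 1633 and 1858 with isoproterenol. The groups overlapped, although isoproterenol replicate 3 stood above all other samples, and it was likewise the highest sample for NPAS4, ARC, HOMER1 and NRN1. The NPTX1 difference was 6.28% (95% interval -3.21% to 16.7%), with a limma adjusted p of 0.785 unpaired and 0.246 with the block. NPTX2 (ENSG00000106236; chromosome 7, 98617285 to 98629869) had the lowest spread of the members among untreated samples, at 1697, 1720 and 1728 normalized counts untreated and 1657, 1732 and 1706 with isoproterenol. Its coefficient of variation was 0.938% among untreated and 2.23% among isoproterenol samples, where that of PLK2 was lower at 1.38%, and its difference was -0.973% (95% interval -7.81% to 6.37%).

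Within each library the log2 ratio of NPTX2 to NPTX1 is independent of scaling. Untreated replicates 1 to 3 gave 0.18, 0.12 and 0.084, and the treated replicates gave 0.12, 0.085 and -0.12. The ratio was lower with isoproterenol in all 3 pairs, by a mean of -0.10. The two-sided exact permutation p was 0.3, where 3 samples against 3 allow 0.1 at best, and the two-sided exact sign-flip p within pairs was 0.25, the smallest that 3 pairs allow. Neither test can reach 0.05 in this design, so the difference remained undecided.

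NRN1 (ENSG00000124785; chromosome 6, 5997999 to 6007605) had the largest counts of the members, 3559, 3111 and 3516 untreated and 3601, 3400 and 3631 with isoproterenol. Untreated replicate 2 was low, and the other 5 samples lay close together. The NRN1 difference was 4.53% (95% interval -3.10% to 12.8%; limma adjusted p 0.812 unpaired and 0.27 with the block). PLK2 (ENSG00000145632; chromosome 5, 58453982 to 58460139) measured 376, 343 and 311 normalized counts untreated and 361, 354 and 352 with isoproterenol. The isoproterenol values fell inside the untreated range, with a difference of 3.91% (95% interval -8.95% to 18.6%; limma adjusted p 0.928 unpaired and 0.818 with the block). For all 5 effectors the upper limit of the unpaired interval was under 20%, and with the block it ran from 4.51% for NPTX2 to 16.2% for PLK2. The unpaired intervals of all 5 included 0, so changes inside them cannot be told from 0 in that fit. With the block the intervals of HOMER1, NPTX2 and PLK2 included 0, and those of NPTX1 and NRN1 lay just above 0. These intervals are not adjusted for the number of genes tested, and neither NPTX1 nor NRN1 passed an adjusted p of 0.05 with the block (limma, 0.246 and 0.27).

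Levels were compared between genes per kb of exon (GENCODE 44), a measure that assumes all annotated exons were counted. In untreated samples NRN1 was the most abundant at 1485 normalized counts per kb, followed by NPTX2 (566), NPTX1 (224), HOMER1 (184), PLK2 (73.9), ARC (54.4) and NPAS4 (1.12). No neighbors in this order overlapped among untreated samples. With isoproterenol the order was the same, but ARC (60.7 to 93.9) overlapped PLK2 (75.7 to 77.7), and NPAS4 remained lowest at 10.9 to 32.3 normalized counts per kb. None of the 7 genes shares exonic bases with another annotated gene.

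**Figure D3:**
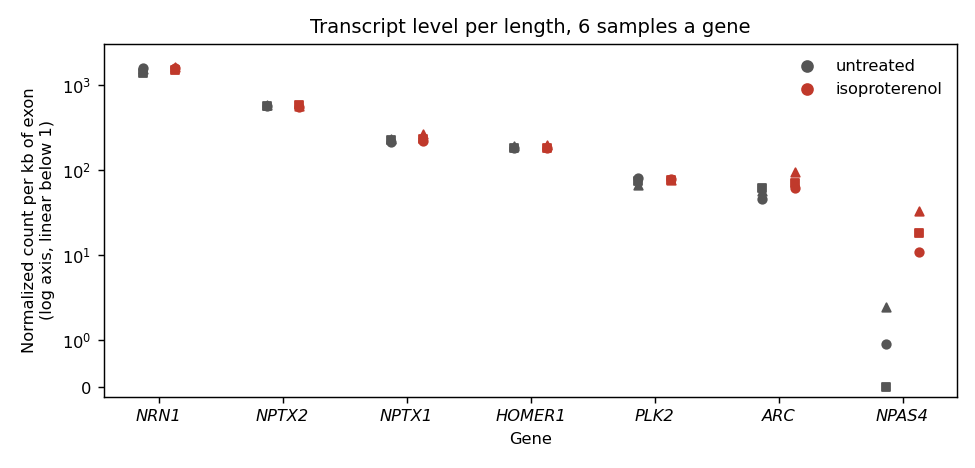
Normalized counts per kb of annotated exon (log axis, linear below 1) of the 7 genes, ordered by untreated mean, with grey for untreated and red for isoproterenol samples and a circle, square or triangle for replicates 1, 2 and 3. NRN1 lies at 1361 to 1588 and untreated NPAS4 between 0 and 2.44, and the ARC and PLK2 points overlap only with isoproterenol.

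Genes around the members in the pathway were counted from lists grouped by function, which were compiled with earlier results of these data known. The 7 partners and relatives of NPAS4 (ARNT, ARNT2, BMAL1, BMAL2, NPAS1, NPAS2 and NPAS3) showed 0 calls with limma or edgeR, unpaired or blocked. Of all genes, limma called 0.0165% unpaired and 4.88% blocked, and edgeR 0.0552% and 5.1%. In unpaired limma 0 of the 7 had an unadjusted p under 0.05, against 7.68% of all genes. Their median log2 fold change was -0.027, against 0.0015 over all genes. ARNT2, a partner of NPAS4 in neurons, was present at 5905 ± 172 normalized counts without treatment, where NPAS4 was nearly absent. Of 24 tested partners and paralogs of the effectors, including SHANK scaffolds, glutamate receptors, other HOMER and PLK genes and the pentraxin receptor NPTXR, limma called 0 unpaired (2 had p under 0.05 before adjustment, against 7.68% of all genes). With same-numbered samples paired, 1 was lower and 0 were higher, where 2.06% of all genes were called lower. This was GRIA4, an AMPA receptor subunit, at 5568 ± 32.2 and 5210 ± 177.8 normalized counts (log2 fold change -0.096, limma adjusted p 0.0136 with the block). The list median was -0.028.

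Of 24 other activity-regulated genes, 20 were tested. Unpaired, limma and edgeR called 0, 11 had an unadjusted limma p under 0.05 (7.68% of all genes) and DESeq2 called 1 (0.15%). With the replicate block limma called 11 higher and 2 lower, against 2.82% and 2.06% of all genes, edgeR called 13 (5.1% of all genes) and DESeq2 called 4 (0.999%). The list median log2 fold change was 0.18. GEM, a small GTPase that restrains calcium channels, averaged 138 ± 39.5 and 307 ± 112 normalized counts (log2 fold change 1.14, limma adjusted p 1.81e-14 with the block). The neuropeptide gene SST averaged 375 ± 155 and 761 ± 306 (1.01, 3.79e-23), and the neurotrophin BDNF 320 ± 108 and 477 ± 179 (0.56, 3.82e-08). For SST and BDNF the groups overlapped, and replicate 2 was the lowest and replicate 3 the highest of both groups. RASD1, a small G protein, rose from 167 ± 24.9 to 214 ± 29.3 (0.36, 0.0351 with the block), and RGS2, which limits G protein signaling, from 603 ± 21.9 to 768 ± 34.3 (0.35, 7.36e-06 with the block). SYT10, a synaptotagmin, averaged 547 ± 58.5 and 651 ± 40.1, without overlap (0.26, limma adjusted p 0.00476 with the block). The 2 that fell were RGS4 (-0.21, 0.00119) and RHEB (-0.11, 0.0467), named after their values were seen.

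**Figure D4:**
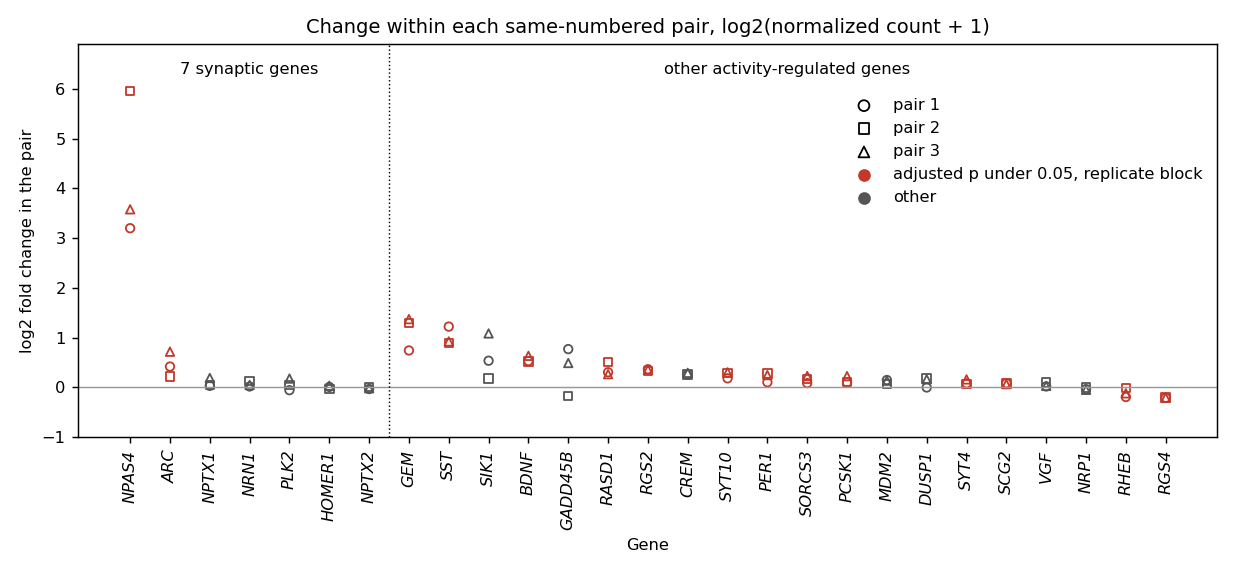
Log2 fold change within each same-numbered pair (circle, pair 1; square, pair 2; triangle, pair 3) for the 7 synaptic genes and 20 other activity-regulated genes, in red where the limma adjusted p with the replicate block was under 0.05. NPAS4 lies at 3.20 to 5.96, ARC at 0.21 to 0.72, and the effectors within 0.19 of 0.

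Among 11 tested upstream genes (CREB1, MEF2 factors, SRF, CRTC coactivators, NMDA receptor and calcium channel subunits), limma and edgeR called 0 unpaired and 2 had an unadjusted limma p under 0.05 (7.68% of all genes). With the block 1 was higher and 1 lower (2.82% and 2.06% of all genes). The NMDA receptor subunit GRIN1 measured 628 ± 70.6 untreated and 769 ± 67.6 with isoproterenol (log2 fold change 0.29, limma adjusted p 2.67e-04 with the block), and the CREB coactivator CRTC1 measured 1706 ± 145 and 1513 ± 95.01 (-0.17, 0.0025).

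Patterns across the 6 samples were compared by Pearson correlation of log2 values, as a description, since the 6 points fall into 2 groups and share libraries. Among 13057 candidate genes averaging 50 normalized counts or more, 40 reached 0.95 with NPAS4. The closest were FOSB (r = 0.984), an AP-1 subunit that itself went from 1.94 to 10.3 untreated to 58.9 to 268 normalized counts with isoproterenol, CACNA1A (0.983), a calcium channel subunit, and CCDC84 (0.98). Their log2 fold changes were 4.39, 0.11 and 0.35, so a like pattern does not mean a like size. FOSB reached a mean of 50 only through its isoproterenol values. For ARC, 24 genes reached 0.95 and the closest were CUBN (0.988), GNG3 (0.982) and USP28 (0.981), whose log2 fold changes were 0.34, 0.076 and 0.34.

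In bulk samples, more transcript per cell and more cells of a type cannot be told apart, so marker lists were read beside these results. GABAergic markers (4 of 7 listed, DLX1, DLX2 and DLX5 not analysed here) summed to 58.5 to 67.2 normalized counts untreated and 76.1 to 88.2 with isoproterenol. None of the 4 was at 0, and GAD1 and GAD2 reached at most 35.9 and 32.9. The vesicular GABA transporter SLC32A1 went the other way, at 19.1 ± 4.37 and 14.6 ± 4.46 normalized counts, and none of the 4 passed the test, unpaired or blocked. Pluripotency markers (3 of 7 listed) summed to 46.6 to 58.5 and 67.7 to 80.7, and oligodendrocyte lineage markers (4 of 6) to 1060 to 1094 and 1115 to 1181. The first of these sums followed SALL4 (33.8 ± 6.13 and 53.7 ± 2.02), while LIN28A averaged 16.2 and 13.2. The second followed MBP (937 ± 21.6 and 1024 ± 56.7), while OLIG1 averaged 107.6 and 90.1 and OLIG2 20.8 and 14.0, and none of these 5 genes passed the test in either fit. Astrocyte markers (2 of 6) summed to 160 to 175 and 134 to 157, and cholinergic and peripheral markers (7 of 7) to 21190 to 21504 and 20462 to 21053. Within the last list POU4F1 fell by 0.15 and SLC5A7 rose by 0.094 on the log2 scale (limma adjusted p 1.40e-07 and 0.0069 with the block). These sums did not overlap between groups. Of the tested genes in these lists, only GAD2, SALL4 and MBP separated the groups, all higher with isoproterenol, as were 6.73% of all genes. The part of these sums in the NPAS4 and ARC results was not tested. Glutamatergic markers (12 of 12) overlapped at 156407 to 159937 and 157366 to 162686, as did the proliferation markers (3 of 6) at 488 to 508 and 492 to 594. Of 16 housekeeping genes, limma called 0 unpaired, and 2 had an unadjusted p under 0.05 (7.68% of all genes). With the block it called 1, ACTB (log2 fold change 0.10, adjusted p 3.12e-08), where 2.82% of all genes were called higher. The median log2 fold change of the housekeeping genes was -0.039, and 3 of the 16 were above 0, against 9161 of the 18130 genes tested. In 3 of them (TBP, PGK1 and PSMB4) all isoproterenol values lay below all untreated values. The share of all genes that did so was not counted.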

How the data were processed

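Poly(A) RNA from 3 untreated and 3 isoproterenol samples was sequenced from directional libraries. Per the labels and the study's methods, the authors aligned reads to GRCh38 with STAR, counted them per gene with featureCounts and normalized with DESeq2. Versions, annotation release and strand setting are not given in the sources used here. The deposited values are a signal, the count divided by 1 size factor per sample (0.867 to 1.033). All values above 0 (100%) were whole multiples of 1 step per column within 0.05 reads, which gave back reads, summing to 18116816 to 21488793 per sample.

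Genes with more than 5 reads in at least 4 samples were kept (18130 of 19823). The values were not raw counts, so the main test was limma 3.58.1 in R 4.3.3 (trend and robust options) applied to log2(normalized count + 1), unpaired, two-sided, with Benjamini-Hochberg adjustment over all genes. Alternatives were edgeR 4.0.16 and DESeq2 1.42.0 on the recovered reads, other scalings, pseudocounts and filters, samples left out, and replicate number as a block. Deviations from group means of same-numbered samples correlated at 0.269, 0.493 and 0.388 over 11587 genes averaging 100 or more, all above 0.1, so the numbers in the sample titles were taken to pair the samples. Scripts were tested on simulated data. Gene identifiers were matched to GENCODE 44 for positions, and promoter windows came from RefSeq, with an entry for 5 of the 7 genes used here.

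The members and lists were chosen with earlier results of these data known. Named were the 7 members, list genes past an adjusted p of 0.05 in the unpaired or blocked limma fit (at most 6 a list, by size, with RGS4 and RHEB added after their values were seen because they were the 2 called lower), defining markers, RBM12, and the 3 genes closest in pattern to NPAS4 and to ARC.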

Additional observations from a re-analysis of the deposited data

How the results depend on the processing

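Over 25 alternatives the log2 fold change of NPAS4 stayed positive (3.07 to 4.97) and its adjusted p was under 0.05 in 13. Keeping only genes averaging 50 or more removed NPAS4 and gave no value. Its adjusted p ranged from 2.13e-20 to 0.982 and that of ARC from 0.00204 to 0.982. ARC stayed positive in 26 (0.28 to 0.59) and passed in 4, and NPTX1 and NRN1 stayed positive in 26 and passed in 0. With the replicate block in limma, the genes past an adjusted p of 0.05 numbered 885 instead of 3, the members 2 instead of 0 (NPAS4 at 4.24, ARC at 0.45), the effector partners 1, the other activity-regulated genes 13 and the upstream genes 2. With edgeR and the block these numbers were 925, 2, 1, 13 and 2 (NPAS4 4.18, ARC 0.46), and with DESeq2 and the block 139 genes, 1 member (NPAS4 4.57) and 4 other activity-regulated genes passed. Unpaired edgeR gave 10 genes and 1 member (NPAS4 4.17), and unpaired DESeq2 23 genes, 1 member (NPAS4 4.20) and 1 other activity-regulated gene. A pseudocount of 5 gave 1 member (NPAS4 3.07), and limma without trend and robust moderation 0 genes. The cause of these shifts was not tested. The pairs changed no other member's call.

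Leaving out 1 sample or 1 pair, with or without the block, gave 2 to 665 genes, 0 to 2 members, 0 to 1 effector partners, 0 to 12 other activity-regulated genes and 0 to 2 upstream genes. Unpaired, the count of genes was 67 without isoproterenol replicate 2 and 77 without both replicates 2. With the replicate block and without replicate 1, 2 or 3, the genes numbered 531, 665 and 456, other activity-regulated genes 12, 11 and 7, and NPAS4 stood at 4.77, 3.39 and 4.58. ARC was 0.57 without replicate 2, and without replicate 3 HOMER1 was -0.012 and PLK2 -0.0049. NPAS4 ran from 3.37 to 4.97 and ARC from 0.28 to 0.59. Values near 0 changed sign: HOMER1 ran from -0.040 to 0.031, NPTX2 from -0.028 to 0.0034 and PLK2 from -0.013 to 0.12. The NPTX2 to NPTX1 ratio change ran from -0.15 to -0.028, and 4 to 5 members were higher in every pair kept. With 3 to 8 NPAS4 reads or none in the untreated libraries, depth limits how well the size of its fold change is known.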
